A study of Rattus norvegicus with 8 samples.

Results

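Ovariectomy was compared with sham surgery in the heart of aged rats, on the 2 arrays labelled Ovx and the 2 labelled Sham, which are 4 of the 8 arrays of the study. All rats were females of the Norway Brown strain, 18 to 22 months old. In the Sham group the body cavity was opened and closed with nothing taken out. In the Ovx group the ovaries were removed and no estradiol pellet is listed. The other 4 arrays came from ovariectomised rats that carried a 0.5 mg pellet releasing 17β-estradiol over 90 days. The pellet was placed at surgery in the early estradiol group and 9 weeks later in the late estradiol group. Each array read a pool of total RNA from 3 hearts, so a value is a mean over animals, and p-values measure only the spread between pools, part of which may be technical. The arrays were chosen by their labels, and Ovx was paired with Sham by the replicate number, 1 or 2. All 31099 probe sets of the Affymetrix array were read, and 18625 of them were bright enough to be tested, which stood for 10450 named genes. The tissue label was checked on 11 cardiomyocyte genes. The 10 of them that were measured, among them Myh6, Tnnt2 and Mb, all lay at or above percentile 99.4 of all probe sets. Actc1 had no probe set with a single gene symbol among those tested, and whether brightness or annotation left it out was not examined.

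The ovary is the main source of circulating estradiol, which acts through the nuclear receptors encoded by Esr1 and Esr2 and the membrane receptor encoded by Gper1. Cardiomyocytes, fibroblasts and vascular cells of the heart can all carry such receptors. The adult heart draws most of its energy from fatty acids burned in mitochondria, and its force comes from sarcomeres, whose proteins are held in register at the Z disc. Under load the ventricle is known to take up again a fetal set of genes that includes Acta1 and Nppa.

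The arrays differed in brightness before normalization. The trimmed mean signal was 70.0 and 105.9 on the Sham arrays and 40.5 and 116.3 on the Ovx arrays of replicates 1 and 2, and it ran from 28.2 to 137.5 over all 8. The ratio of the 3′ to the 5′ Gapdh probe set, a sign of RNA integrity, was 1.56 and 1.39 in Sham and 1.65 and 1.51 in Ovx, and it was highest on late estradiol replicate 1, at 2.7. The same ratio for actin was 1.9 and 2.75 in Sham and 1.71 and 3.06 in Ovx, with Ovx replicate 2 the highest of all 8 arrays. The part of RNA integrity in the differences was not tested. Values below are log2 signal after quantile normalization, on which a difference of 1 is a 2-fold change. Differences are Ovx minus Sham, with the moderated standard error from limma. Without normalization between arrays the median difference over all genes was -0.32, and with each array scaled to a common median it was -0.18, against -0.02 as reported. Depth has no counterpart in reads here, and with 2 arrays per group the number of arrays limits the precision.

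No probe set passed the adjusted threshold between Ovx and Sham. Of 18625 tested, 0 (0%) passed an adjusted p of 0.05 in limma, where the smallest adjusted p was 1.0. An unadjusted p under 0.05 was found for 573 (3.08%), of which 268 lay higher and 305 lower in Ovx. Calls appeared in other fits of the same values. With the Ovx and Sham arrays alone in the fit, limma called 8 probe sets. The smallest adjusted p was that of Gpnmb (0.00325), a glycoprotein of macrophages, which differed by 0.65 in replicate 1 and 3.56 in replicate 2. The others were Acta1, Lilrb4, Npy and a probe set with no gene symbol (adjusted p = 0.0232 each), Tubb6 (adjusted p = 0.0404), and Fcer1g and Pdk4 (adjusted p = 0.0472 each). All but Pdk4 lay higher in Ovx. Lilrb4 and Fcer1g are receptor genes of myeloid cells. Without Ovx replicate 1, limma called 8, led by Spp1, Gpnmb and Lgals3, and Acta1 and Pdk4 were not among them. Spp1, which encodes the secreted protein osteopontin, differed by -2.57 in replicate 1 and 7.23 in replicate 2. Without Ovx replicate 2, no probe set was called and 1222 had an unadjusted p under 0.05, of which 909 lay lower. No gene named below passed the adjusted threshold in the limma fit of all 8 arrays, so no single p-value from it is given, and each difference stands with its standard error (SE, n = 2 pools per group).

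The replicates gave differences that mostly did not go together. Of the 10450 genes, the mean difference was above 0 for 47.3%, both replicates gave a higher value in Ovx for 21.6% and both gave a lower value for 24.3%. Among the 5587 bright genes, those at or above a mean log2 signal of 6.13, 19.1% lay higher in both replicates and 23.8% lower in both. Both Ovx arrays lay above both Sham arrays for 10% of bright genes and below them for 13.3%. Across these bright genes the difference in replicate 1 and that in replicate 2, which share no array, had a Pearson r of -0.18. Over the 2391 genes at or above a log2 signal of 7.73, r was -0.24. These are correlations across genes of 8 arrays normalized together, and genes are not replicates. Large differences were few among these very bright genes, 98.3% of which differed by less than 0.5 in the mean. The genes named below are mainly the 15 bright genes per direction with the largest difference seen in both replicates, outside lists of matrix, fibroblast, macrophage and clock genes. A further 8 per direction were taken from the very bright genes by the same measure after the values had been seen. Their differences describe how they were chosen, and their counts are no test. The same holds for the members named from gene lists, which were ranked by the same measure. Because the choice favours extreme Ovx values, estradiol arrays can lie on the Sham side of Ovx by selection alone. Their place is thus no sign of an estradiol effect.

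**Figure D1:**
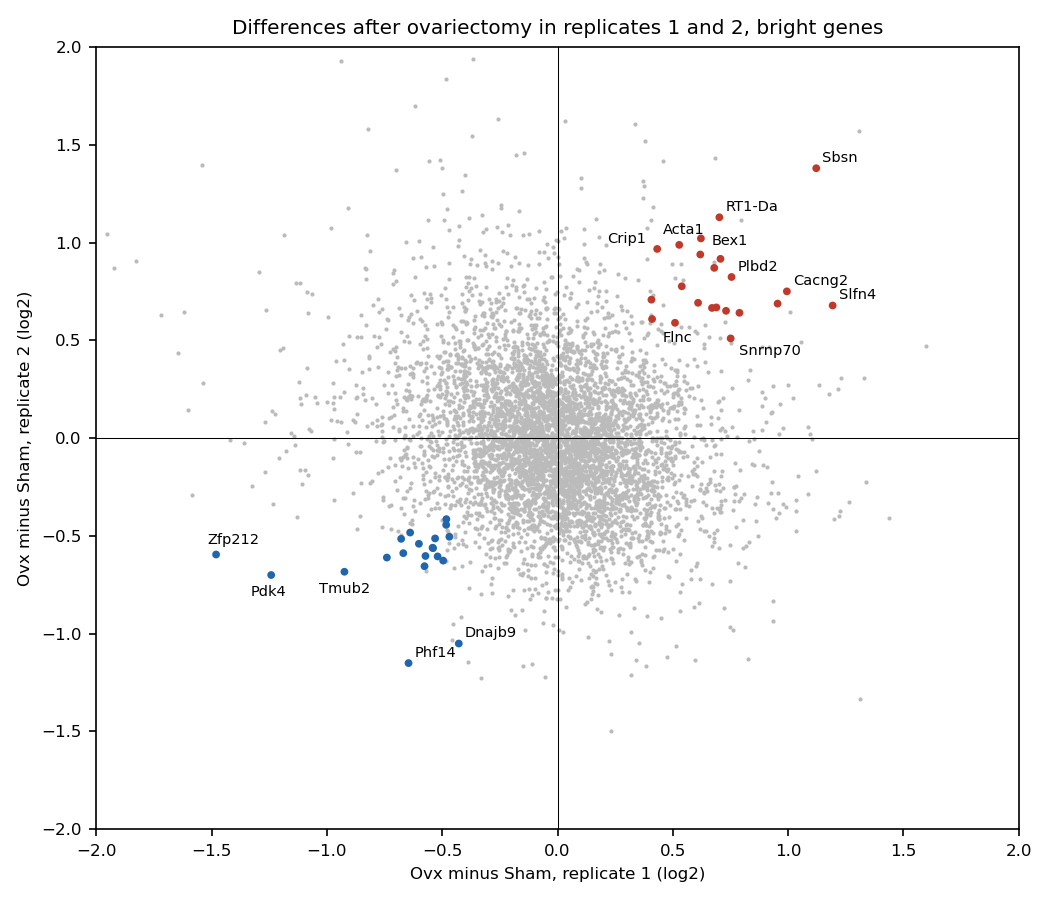
Ovx minus Sham in replicate 1 (horizontal, log2) against replicate 2 (vertical, log2) for the 5587 bright genes, each a grey point, with 11 genes that differed by more than 2.0 in a replicate not drawn. The 42 named genes are red where Ovx was higher and blue where it was lower, and the grey cloud has no slope upward to the right (r = -0.18).

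Genes of the contractile apparatus stood on both sides, with Acta1 and Flnc higher and Tcap and Abra lower in the Ovx pools. Acta1 encodes skeletal alpha-actin, an actin of the fetal and the loaded heart. It stood at 11.33 and 11.26 in Sham and at 11.86 and 12.25 in Ovx. The Ovx arrays lay above the Sham arrays, by 0.76 ± 0.20 (SE), which is 1.69-fold. Early estradiol stood at 11.64 and 11.61 and late estradiol at 11.76 and 11.07. The early values lay between Sham and Ovx, and of the late pools replicate 2 lay below both Sham arrays. Flnc, which encodes filamin C, an actin crosslinker of the Z disc, stood at 8.51 and 8.33 in Sham and 9.02 and 8.92 in Ovx. Its difference was 0.55 ± 0.18, without overlap, and its other probe set had the same sign. Tcap encodes telethonin, which caps titin at the Z disc, and went the opposite way. It stood at 11.84 and 12.05 in Sham and 11.37 and 11.55 in Ovx, a difference of -0.49 ± 0.12. Its Ovx arrays lay below all 6 others, with early estradiol at 11.69 and 11.73 and late estradiol at 11.89 and 11.84. Abra encodes an actin-binding protein of striated muscle. Its values were 8.48 and 8.02 in Sham against 7.94 and 7.46 in Ovx, a difference of -0.55 ± 0.24 that left little room between the lowest Sham and the highest Ovx array.

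The promoter of Acta1 is shown because Acta1 is regulated by serum response factor, the factor that Abra acts on, and that factor binds the CArG box. The window runs from 250 bases before to 50 after the start of the gene, at chr19:68784145-68784444 on the minus strand of GRCr8, as given by RefSeq, and capitals mark the CArG box.
Acta1: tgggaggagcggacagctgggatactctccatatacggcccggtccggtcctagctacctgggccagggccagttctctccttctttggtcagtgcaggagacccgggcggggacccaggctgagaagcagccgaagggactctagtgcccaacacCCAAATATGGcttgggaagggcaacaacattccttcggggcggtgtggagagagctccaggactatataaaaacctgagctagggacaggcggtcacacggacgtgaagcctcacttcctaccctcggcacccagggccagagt
A CArG box, searched on both strands, was present in 1.64% of all 33469 promoter windows of this length and in 2 of the 29 named genes with a single window, Acta1 and Herpud1. A match describes these letters only.

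The wider sarcomere and Z disc list held 51 measured genes, of which 26 lay higher and 25 lower. 12 were higher and 8 lower in both replicates, beside 21.6% and 24.3% of all genes. The median was 0.02. Relative to all genes it was 0.04, but 0.18 both without normalization between arrays and with median scaling. Myl4, the light chain of atrial and fetal myosin, stood at 5.74 and 5.99 in Sham and 6.19 and 6.58 in Ovx (0.52 ± 0.45). The 12 measured atrial markers had a summed signal of 3877 and 5740 in Sham and 4929 and 6179 in Ovx. Nppa is among them, and its values, given below, differed widely between the pools of each group. The spread of the sum thus follows largely from Nppa. The part of atrial tissue in the Myl4 values was not tested. The classic myosins were near level. Myh6, the fast alpha myosin heavy chain, differed by -0.09 ± 0.11, a sign that turned to 0.11 with median scaling. Myh7, the slow beta chain, differed by 0.07 ± 0.12. Nppa, the atrial natriuretic peptide, stood at 8.85 and 11.23 in Sham and 10.03 and 11.46 in Ovx, and its 0.70 ± 0.56 lies within the spread of the Sham pools. Without Sham replicate 1 its difference was -0.38. Nppb, the B-type natriuretic peptide, differed by -0.08 ± 0.15, and Atp2a2, which pumps calcium back into its store, by -0.01 ± 0.11, which became 0.09 without normalization between arrays and 0.22 with median scaling.

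**Figure D2:**
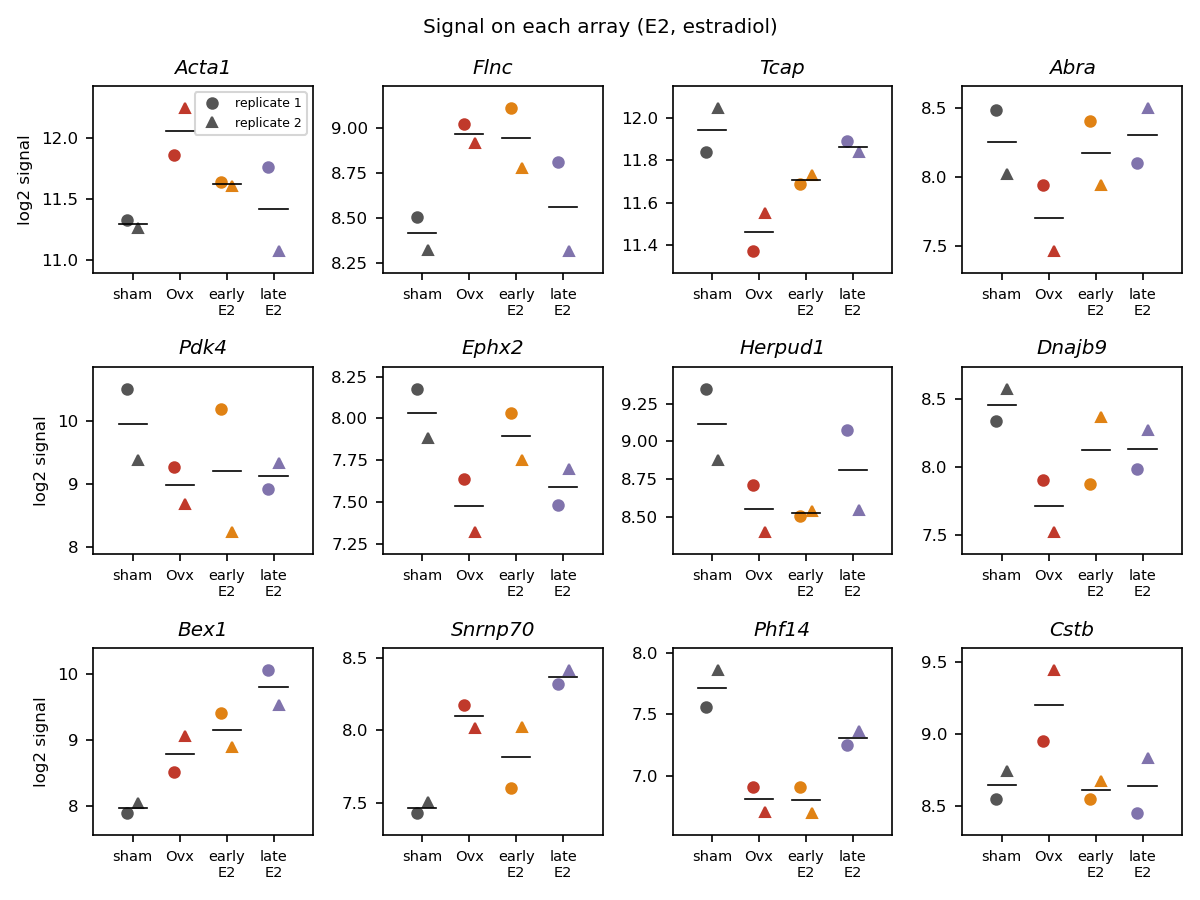
Log2 signal (vertical, own range in each panel) of 12 named genes on each of the 8 arrays, by group (horizontal); circles are replicate 1, triangles replicate 2 and lines the group mean of 2 arrays. In every panel the red Ovx points lie on one side of the grey sham points, as at 11.86 and 12.25 against 11.33 and 11.26 for Acta1, while the estradiol groups differ in place from gene to gene.

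Cell junctions, calcium handling and ion channels gave scattered values. Their counts stand beside all genes, of which 21.6% lay higher and 24.3% lower in both replicates. The list of membrane cytoskeleton and intercalated disc had 41 measured genes with 7 higher and 5 lower in both replicates. Desmosomal cadherins led the lower side. Dsc2 (desmocollin 2) stood at 6.56 and 6.33 in Sham and 5.92 and 5.90 in Ovx (-0.54 ± 0.26). Dsg2 (desmoglein 2) stood at 8.78 and 8.71 in Sham and at 8.38 on both Ovx arrays (-0.36 ± 0.18). For both cadherins the 4 estradiol arrays lay above the Ovx arrays, at 6.43 to 6.59 for Dsc2 and 8.81 to 9.33 for Dsg2. Ctnnb1, the beta-catenin of adherens junctions, lay higher by 0.25 and 0.45 in the replicates. In the calcium cycling list, 19 of 43 measured genes lay higher and 24 lower. Ryr2, the calcium release channel of the sarcoplasmic reticulum, stood at 11.86 and 11.67 in Sham and 11.64 and 11.07 in Ovx (-0.41 ± 0.13). The highest Ovx array lay just below the lowest Sham array, and the other Ryr2 probe set had the opposite sign. S100a1, a calcium sensor that binds the ryanodine receptor, stood at 7.91 and 7.56 in Sham and 8.22 and 8.09 in Ovx (0.42 ± 0.20). Pde4d, a phosphodiesterase of cyclic AMP, differed by -0.24 and -0.55. Of 35 channel and pump genes, 7 lay higher and 6 lower in both replicates. Hcn2, the pacemaker channel, differed by 0.58 ± 0.29, and Kcnj11, the pore of the ATP-sensitive potassium channel, by -0.39 ± 0.19, with both of its other probe sets on the same side.

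Most genes of oxidative metabolism had slightly lower values after ovariectomy, though for the respiratory chain the lean depended on the scaling of the arrays. Among the bright genes outside the lists set aside, Pdk4 had the largest lower difference seen in both replicates. It encodes the kinase that switches off pyruvate dehydrogenase when fat is burned. It stood at 10.52 and 9.39 in Sham and 9.28 and 8.69 in Ovx, a difference of -0.97 ± 0.40 or 1.96-fold lower, and its other probe set had the same sign. The Sham pools themselves differed by more than 1 unit, and early estradiol, at 10.20 and 8.24, spread further than Sham did. Late estradiol stood at 8.93 and 9.35. In the list of complex I, which passes electrons from NADH into the respiratory chain, 31 of 38 measured genes lay lower and 7 higher. 15 were lower and 1 higher in both replicates, beside 24.3% and 21.6% of all genes. Relative to all genes the median was -0.06, but 0.02 under either other scaling. Ndufv1, which carries the NADH site of the complex, stood at 11.09 and 11.03 in Sham and 10.66 and 10.83 in Ovx (-0.32 ± 0.14). Ndufa9, Ndufs1 and Ndufa2 lay lower in both replicates, with the largest of their differences at -0.23, for Ndufa9 in replicate 2.

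The other complexes were more mixed. Of 44 measured genes of complexes II to V, 29 lay lower and 15 higher, and their median relative to all genes was -0.03, but 0.18 under either other scaling. Cox7a1, the muscle form of a cytochrome c oxidase subunit, differed by -0.20 and -0.40. Cox5a and Cox4i1, subunits of the same enzyme, lay higher, at 0.53 and 0.40 for Cox5a and 0.13 and 0.25 for Cox4i1. In the list of fatty acid uptake and oxidation, 30 of 42 genes lay lower, 16 of them in both replicates against 2 higher in both. The shares of all genes were 24.3% lower and 21.6% higher in both. Its median was -0.06, with -0.13 and -0.07 in the replicates, and stayed below that of all genes under either scaling. Acadm, the medium-chain acyl-CoA dehydrogenase, stood at 12.28 and 12.13 in Sham and 12.13 and 11.95 in Ovx, a difference of -0.17 ± 0.13 that is close to its error. Decr1, which prepares unsaturated fatty acids for oxidation, differed by -0.20 ± 0.15. Acot2, a mitochondrial thioesterase, lay higher by 0.20 and 0.22.

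Ketone and branched-chain amino acid oxidation had 18 of 22 genes on the lower side and 4 on the higher. The median was -0.13, but the replicates differed, with -0.23 in replicate 2 and 0.01 in replicate 1. Acat1, the mitochondrial thiolase of ketone use, stood at 10.69 and 10.62 in Sham and 10.49 and 10.25 in Ovx (-0.28 ± 0.13), and its other probe set had the opposite sign. Bdh1, the dehydrogenase of beta-hydroxybutyrate, differed by -0.33 and -0.31, with overlapping groups. Bcat2, the mitochondrial branched-chain aminotransferase, lay higher by 0.34 and 0.10. Of 26 genes of the TCA cycle and pyruvate dehydrogenase, 19 lay lower, 6 of them in both replicates, and 7 higher, 2 of them in both. That is near the 24.3% of all genes that lay lower in both. The median of this list was 0.01 in replicate 1 and -0.19 in replicate 2. Glycolysis and glycogen genes were split, with 16 higher and 17 lower. Eno3, the muscle enolase, stood at 10.43 and 10.27 in Sham and 10.67 and 10.49 in Ovx (0.23 ± 0.12). Phkb, a subunit of the kinase that starts glycogen breakdown, differed by -0.39 ± 0.21. Slc6a8, the creatine transporter, differed by -0.21 and -0.31. Ppargc1a, the coactivator of mitochondrial biogenesis, differed by -0.16 ± 0.22, with 0.24 in replicate 1 and -0.56 in replicate 2. In the 25 genes of its list, 2 lay higher and 3 lower in both replicates, beside 21.6% and 24.3% of all genes.

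Lipid enzymes outside the mitochondrion included a named gene. Ephx2 encodes soluble epoxide hydrolase, which breaks down vasoactive epoxides of arachidonic acid. It stood at 8.18 and 7.88 in Sham and 7.64 and 7.32 in Ovx, a difference of -0.55 ± 0.22. The groups did not overlap, and both early estradiol arrays (8.04 and 7.75) lay above both late ones (7.48 and 7.70). Msmo1, an enzyme of cholesterol synthesis, stood at 6.87 and 6.66 in Sham and 6.02 and 6.26 in Ovx (-0.63 ± 0.30). In the list of cholesterol synthesis, 9 of 26 genes lay higher and 17 lower, with a median of -0.19 in replicate 1 and 0.13 in replicate 2.

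**Figure D3:**
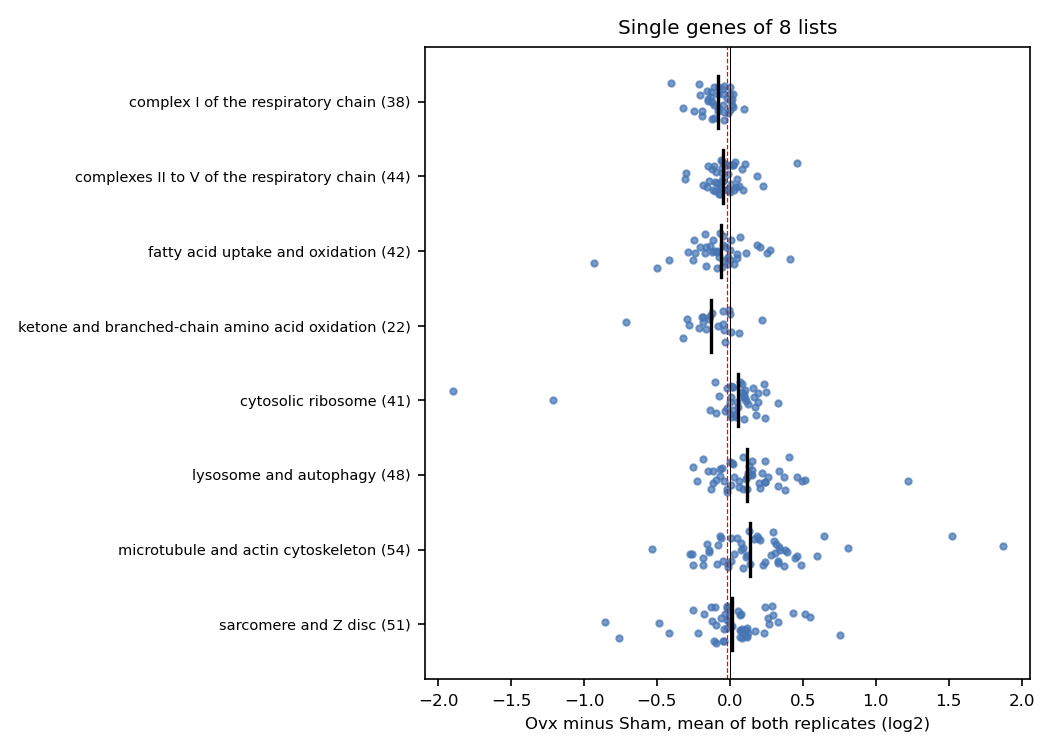
Ovx minus Sham (horizontal, log2, mean of both replicates) for every measured gene of 8 lists, each a point spread vertically at random within its row; black bars are list medians, the thin solid line is 0 and the dashed line the median of all genes (-0.02). Complex I and fatty acid genes lie in a narrow band with medians of -0.08 and -0.06, and lysosome and cytoskeleton genes reach further to the right, with medians of 0.11 and 0.13.

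Most genes of cytosolic ribosomes had slightly higher values in Ovx. In the list of cytosolic ribosomal proteins 32 of 41 genes lay higher, 17 of them in both replicates, and 9 lay lower, 3 of them in both. The shares of all genes were 21.6% higher and 24.3% lower in both. The median was 0.05, with 0.04 and 0.11 in the replicates. Relative to all genes it was 0.08, and 0.18 under either other scaling. Complexes II to V and the sarcomere list also reached 0.18 there, so those scalings do not set the ribosomal list apart. Rpl35 stood at 11.64 and 11.65 in Sham and at 11.88 on both Ovx arrays (0.23 ± 0.12). Eif4ebp1, a repressor of cap-dependent translation, stood at 7.51 and 7.41 in Sham and 7.95 and 7.97 in Ovx (0.50 ± 0.22). Its 4 estradiol arrays lay at 7.06 to 7.58, near Sham. Of 72 mitochondrial ribosomal genes, 28 lay higher and 44 lower, and Mrpl34, at 8.22 and 8.12 in Sham and 8.58 and 8.56 in Ovx, went against the majority (0.40 ± 0.18).

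Endoplasmic reticulum genes gave a pair of the lower genes named for their brightness. Herpud1 encodes a membrane protein that helps remove misfolded proteins from the endoplasmic reticulum. It stood at 9.35 and 8.88 in Sham and 8.71 and 8.40 in Ovx (-0.56 ± 0.19). The groups did not overlap, and early estradiol, at 8.51 and 8.54, lay among the Ovx values. Dnajb9 encodes a co-chaperone of the same organelle. It stood at 8.34 and 8.57 in Sham and 7.91 and 7.52 in Ovx (-0.74 ± 0.23), with 7.88 to 8.37 in the estradiol groups. The list around them was not uniform. Of 44 genes of endoplasmic reticulum stress and folding, 15 lay higher and 29 lower, with a median of -0.20 in replicate 1 and 0.18 in replicate 2. Ero1a, the oxidase that drives disulfide formation, differed by -0.34 and -0.39, and Ssr1, a subunit of the translocon-associated complex, by -0.46 and -0.27.

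The promoter of Herpud1 is shown because that gene is a known target of the unfolded protein response. Its window lies at chr19:10614658-10614957 on the minus strand of GRCr8, from RefSeq. Capitals mark the endoplasmic reticulum stress element II, searched on both strands as ATTGG and CCACG with 1 base between them, a motif added after this window had been read.
Herpud1: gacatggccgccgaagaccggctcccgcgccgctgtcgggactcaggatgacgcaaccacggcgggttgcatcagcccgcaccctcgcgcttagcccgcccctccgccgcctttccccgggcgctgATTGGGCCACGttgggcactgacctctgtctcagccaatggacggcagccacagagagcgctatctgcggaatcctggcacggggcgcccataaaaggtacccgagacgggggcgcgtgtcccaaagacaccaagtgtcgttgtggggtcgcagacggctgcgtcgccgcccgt
That motif was found in 0.0508% of 33469 windows and in 1 of the 29 named genes with a single window. The longer endoplasmic reticulum stress element, CCAAT and CCACG with 9 bases between them, was found in 0.0657% of windows and in 0 of the 29.

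Protein quality control and turnover in the cytosol had members on both sides. Of 45 chaperone and heat shock genes, 10 lay higher and 14 lower in both replicates, beside 21.6% and 24.3% of all genes. Hspa1a, an inducible Hsp70, stood at 8.40 and 8.15 in Sham and 8.08 and 7.70 in Ovx (-0.39 ± 0.24), and Hspa4, a nucleotide exchange factor of Hsp70, differed by the same amount with overlapping groups (-0.39 ± 0.27). Hspb2, a small heat shock protein of muscle, stood at 7.80 and 7.60 in Sham and 8.13 and 8.18 in Ovx (0.46 ± 0.21). Fkbp5, a cochaperone of the glucocorticoid receptor, differed by -0.45 ± 0.29. Among 30 genes of ubiquitin ligases and muscle atrophy, 10 lay higher and 20 lower. Ube2b, a ubiquitin-conjugating enzyme, stood at 10.69 and 10.41 in Sham and 10.34 and 10.03 in Ovx (-0.37 ± 0.15), but its other probe set had the opposite sign. Of 38 proteasome genes 13 lay higher and 25 lower. Psma1 and Psmb4, a pair of subunits of the same core particle, went opposite ways, at 0.38 ± 0.17 and -0.28 ± 0.13.

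Of the 15 named lower genes, 3 act in vesicle traffic, and the share of such genes among all bright genes was not counted. Rab5a, the small GTPase of early endosomes, stood at 7.26 and 7.65 in Sham and 6.66 and 7.11 in Ovx (-0.57 ± 0.22). Snx16, an endosomal sorting nexin, stood at 6.24 and 6.78 in Sham and 5.50 and 6.17 in Ovx (-0.68 ± 0.28), and Snx33, another sorting nexin, differed by -0.56 ± 0.29. In these genes the groups did not overlap, which their selection favours, and the other probe sets of Rab5a and Snx16 had the same sign. The list of secretory traffic and Golgi showed no lean, with 22 genes higher and 21 lower. Lman1, a cargo receptor for glycoproteins, differed by -0.40 and -0.55, and Sec13, a coat protein of vesicles, by 0.34 and 0.32.

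Lysosome, cytoskeleton and antigen presentation genes lay higher mainly in replicate 2, together with macrophage genes. The 32 of 36 macrophage and monocyte genes that passed the brightness filter had a summed signal of 2855 and 3151 in Sham, 3320 in Ovx replicate 1 and 10605 in Ovx replicate 2. Fewer or more cells of a type and a change of RNA per cell cannot be told apart in pooled tissue, and the part of macrophage RNA in the lysosome, cytoskeleton and antigen presentation values was not tested. Of 48 lysosome and autophagy genes, 34 lay higher, with a median of 0.18 in replicate 2 and -0.03 in replicate 1. Ctsz, a lysosomal cathepsin, lay higher by 0.15 in replicate 1 and 2.30 in replicate 2, whereas Atp6v1g1, a subunit of the proton pump, gave 0.42 and 0.34. Plbd2, a lysosomal protein of the phospholipase B family, stood at 6.42 and 6.82 in Sham and 7.17 and 7.65 in Ovx (0.79 ± 0.24). Its other probe set had the same sign, and the size was alike in both replicates, at 0.75 and 0.82. Cstb, an inhibitor of cathepsins, stood at 8.55 and 8.74 in Sham and 8.95 and 9.45 in Ovx (0.56 ± 0.17), and its estradiol arrays lay at 8.45 to 8.83.

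Of 54 microtubule and actin cytoskeleton genes, 38 lay higher and 16 lower. Their median was -0.02 in replicate 1 and 0.30 in replicate 2. Actr2, a core of the actin-nucleating Arp2/3 complex, stood at 9.96 and 9.97 in Sham and 10.26 and 10.27 in Ovx (0.30 ± 0.14), with both other probe sets on the same side. Pfn2, a profilin, lay against that lean, at 7.87 and 8.15 in Sham and 7.46 and 7.50 in Ovx (-0.53 ± 0.22). Ppp1r18, an actin-binding partner of protein phosphatase 1, stood at 5.95 and 5.82 in Sham and 6.56 and 6.76 in Ovx (0.78 ± 0.31). Camsap2, which protects the minus ends of microtubules, was among the lower genes, at 7.17 and 7.38 in Sham and 6.60 and 6.78 in Ovx (-0.59 ± 0.23). The 2 further probe sets of Camsap2 had the same sign. Crip1, a small LIM domain protein, stood at 8.16 and 8.55 in Sham and 8.59 and 9.52 in Ovx (0.70 ± 0.20), with Ovx replicate 1 only just above Sham replicate 2.

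Among 29 genes of antigen presentation, 18 lay higher and 11 lower, with medians of -0.06 and 0.33 in the replicates. RT1-Da, a class II alpha chain, stood at 7.14 and 7.55 in Sham and 7.84 and 8.68 in Ovx (0.92 ± 0.38). RT1-Bb, a class II beta chain, stood at 6.29 and 5.59 in Sham and 6.75 and 7.01 in Ovx (0.94 ± 0.35), and RT1-CE16, a class I gene, differed by 0.69 ± 0.22 with overlapping groups. These genes belong to a family of near copies, and probe sets may not tell all members apart. Slfn4, a Schlafen gene of myeloid cells, stood at 5.86 and 6.24 in Sham and 7.05 and 6.92 in Ovx (0.94 ± 0.28). Its difference was 1.19 in replicate 1 and 0.68 in replicate 2, and the part of macrophage RNA in it was not tested. Ptafr, the receptor of platelet-activating factor, stood at 5.95 and 6.26 in Sham and 6.90 and 6.95 in Ovx (0.82 ± 0.27), but its other probe set had the opposite sign. Csf1, the macrophage colony-stimulating factor, differed by 0.51 ± 0.21 with overlapping groups, and 2 of its 3 other probe sets had the same sign. Inflammatory regulators did not share a direction. Tnfaip3, a brake on NF-kB, stood at 6.53 and 6.46 in Sham and 6.07 and 5.43 in Ovx (-0.75 ± 0.29). In its list of 52 cytokine and NF-kB genes, 26 lay higher and 26 lower.

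Genes of splicing and chromatin were among those named in both directions. Snrnp70 encodes the U1 particle protein that recognises 5′ splice sites. It stood at 7.43 and 7.51 in Sham and 8.18 and 8.02 in Ovx (0.63 ± 0.21). The late estradiol arrays were higher still, at 8.32 and 8.42. Hnrnpa1, a splicing repressor, lay higher by 0.37 and 0.36, with both other probe sets on the same side, and Srsf2, a splicing activator, by 0.26 and 0.30. Of the 62 splicing and RNA processing genes, 15 lay higher and 7 lower in both replicates, beside 21.6% and 24.3% of all genes. The share higher in both was thus near that of all genes. The list median relative to all genes was 0.06, and -0.02 under either other scaling. Phf14, a PHD finger protein that binds histones, had the largest difference seen in both replicates among the bright chromatin regulators. Of the dimmer members, Sinhcaf and Hdac11 lay further down, with a smaller-of-both difference of -2.37 and -0.66. It stood at 7.56 and 7.86 in Sham and 6.92 and 6.71 in Ovx (-0.90 ± 0.24), and both further probe sets had the same sign. Early estradiol, at 6.92 and 6.70, lay with Ovx, and late estradiol, at 7.25 and 7.36, lay between. Hdac5, a class II histone deacetylase, stood at 7.05 and 6.51 in Sham and 7.63 and 7.08 in Ovx (0.57 ± 0.24). Setd2, the methyltransferase of histone H3 lysine 36, stood at 6.35 and 6.56 in Sham and 5.90 and 6.00 in Ovx (-0.51 ± 0.30). Over 61 chromatin regulators, 27 lay higher and 34 lower. The zinc finger genes Zfp212 and Zfp715 were among the lower genes, at -1.04 ± 0.29 and -0.56 ± 0.31. Zfp212 was lowest on Ovx replicate 1, at 5.67 against 6.60 in Ovx replicate 2 and 7.15 and 7.20 in Sham.

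Estrogen receptors and known estrogen-responsive genes lay on both sides. Esr1, Esr2 and Pgr, the receptors of estradiol and progesterone, had no probe set with a single gene symbol among those tested. Since no detection calls were used, their presence was not judged. Gper1 was dim, at 5.10 and 3.24 in Sham and 5.63 and 2.28 in Ovx (-0.21 ± 0.80), and its sign turned to 0.06 with 32 added before the log2. Of 31 measured genes of the list, 16 lay higher and 15 lower. In both replicates 4 lay higher and 7 lower, beside 21.6% and 24.3% of all genes. Ptgis, prostacyclin synthase, led the list at 6.79 and 6.64 in Sham and 7.18 and 7.17 in Ovx (0.46 ± 0.27), with late estradiol at 6.57 and 6.01. The half-site AGGTCA of the estrogen receptor, searched on both strands, was present in 16.2% of all promoter windows and in 13.8% of the 29 named genes with a single window, namely Ptafr, Rab5a, Wwc2 and Herpud1. The full response element, GGTCA and TGACC with 3 bases between them, was found in 0.0269% of windows and in 0 of the 29. Another 4 named genes had several windows and 9 had none in the RefSeq table.

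Signalling genes were named singly, and their lists are set beside all genes, of which 47.3% lay higher in the mean, 21.6% higher in both replicates and 24.3% lower in both. Klf10, an early response gene of TGF-beta, stood at 6.66 and 6.63 in Sham and 6.08 and 5.97 in Ovx (-0.62 ± 0.31). Skil, a repressor of Smad proteins, differed by -0.46 ± 0.22 without overlap. Id2, an inhibitor of basic helix-loop-helix factors that BMP induces, stood at 7.84 and 7.54 in Sham and 8.38 and 8.31 in Ovx, but its estradiol pools spread from 7.09 to 8.28 and its error was wide (0.66 ± 0.40). Of 39 genes of TGF-beta and BMP signalling, 15 (38.5%) lay higher, 7 of them in both replicates, and 24 lower, 9 of them in both. The share lower in both was near that of all genes. In MAP kinase signalling, 10 of 29 genes lay higher, 3 of them in both replicates, and 19 lower, 9 of them in both, with medians of -0.07 and -0.20 in the replicates. Map3k4, a kinase upstream of p38 and JNK, stood at 6.94 and 6.88 in Sham and 6.41 and 6.37 in Ovx (-0.52 ± 0.26). Mapk8, which encodes JNK1, differed by -0.58 and -0.31, while Mapk14, which encodes p38 alpha, lay higher by 0.27 and 0.30. Shc1, an adaptor of growth factor receptors, differed by 0.71 ± 0.34. Arrdc3, an arrestin-domain protein that acts on beta-adrenergic receptors, stood at 7.77 and 7.67 in Sham and 7.10 and 7.15 in Ovx (-0.60 ± 0.21). Its other probe set had the same sign, and its estradiol arrays lay at 7.47 to 7.81. Of the 30 adrenergic and muscarinic genes, 10 (33.3%) lay higher, 4 of them in both replicates, and 20 lower, 7 of them in both. Only the share lower in both was near that of all genes. Immediate early genes, the first to respond to a stimulus, had 11 of 35 members higher, 9 of them in both replicates, and 24 lower, 13 of them in both, with medians of -0.12 and -0.05. Hey1, a target of Notch, differed by -0.38 and -0.33, in a list of 23 with 10 higher and 13 lower.

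The remaining named genes have no common role. Sbsn, a secreted protein best known from epithelia, had the largest higher difference seen in both replicates among the bright genes outside the lists set aside. It stood at 6.51 and 7.27 in Sham and 7.63 and 8.65 in Ovx (1.25 ± 0.33), with estradiol arrays at 7.44 to 8.25. Bex1, a small adaptor best known from neurons, stood at 7.90 and 8.05 in Sham and 8.52 and 9.07 in Ovx (0.82 ± 0.25). All ovariectomised pools lay above the Sham pools, and late estradiol was the highest, at 10.07 and 9.53. Iqub, a ubiquitin-like protein of cilia, was likewise lowest in Sham and highest in late estradiol, at 5.50 and 5.28 in Sham, 6.21 and 6.19 in Ovx and 7.14 and 6.98 in late estradiol. Cacng2, a channel and receptor subunit of neurons, differed by 0.87 ± 0.28 with overlapping groups, as did Npdc1, a protein of neurons (0.65 ± 0.30). Cib1, a calcium- and integrin-binding protein, stood at 6.24 and 6.59 in Sham and 6.93 and 7.26 in Ovx (0.68 ± 0.26). Ctdnep1, a phosphatase of the nuclear envelope, differed by 0.67 ± 0.30 and R3hdm2 by 0.78 ± 0.27. Fzr1, an activator of the anaphase-promoting complex, differed by 0.69 ± 0.29, but its other probe set had the opposite sign. On the lower side, Tmub2, a membrane protein with a ubiquitin-like domain, stood at 7.34 and 7.41 in Sham and 6.42 and 6.73 in Ovx (-0.80 ± 0.25). Wwc2, a relative of the Hippo pathway protein Kibra, differed by -0.63 ± 0.28, with its 2 other probe sets on the same side. Slc30a9, of the zinc transporter family, differed by -0.45 ± 0.20. Over these and the genes above, the groups did not overlap for 13 of the 15 higher and 14 of the 15 lower genes of the first set. Its selection favours this, and over all bright genes the shares were 10% and 13.3%.

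Markers of other cell types differed in how they moved. The summed signal of 14 fibroblast genes was 6026 and 5966 in Sham, 6360 in Ovx replicate 1 and 8289 in Ovx replicate 2, and that of 63 matrix genes was 18927 and 17445 in Sham and 19788 and 26153 in Ovx, with Ovx replicate 2 the highest each time. The 29 adipocyte and lipid storage genes summed to 8395 and 8139 in Sham and 7126 and 7720 in Ovx. Of these, 8 lay higher, 2 of them in both replicates, and 21 lower, 13 of them in both. The shares of all genes were 21.6% higher and 24.3% lower in both. Lipe, the hormone-sensitive lipase, differed by -0.30 and -0.22. Fatty acid enzymes are shared by adipocytes and cardiomyocytes, and the part of fat tissue in the fatty acid list was not tested. Endothelial genes summed to 7868 and 8078 in Sham and 7459 and 8787 in Ovx, and smooth muscle genes to 13574 and 13138 in Sham and 13421 and 13118 in Ovx, with the groups overlapping in both. Genes of T and NK cells also overlapped, at 839 and 704 against 759 and 763. Nerve and Schwann cell genes summed to 1111 and 1181 in Sham and 1990 and 1494 in Ovx, but of the 12 measured, 7 lay higher and 5 lower. The highest difference of that list, 1.45, was that of Npy, which weighs on the sum most of all in replicate 1. Npy, the neurotransmitter of sympathetic nerves and 1 of the genes called with the Ovx and Sham arrays alone in the fit, stood at 7.40 and 8.30 in Sham and 9.93 and 8.67 in Ovx (1.45 ± 0.39). The difference was 2.53 in replicate 1 and 0.37 in replicate 2.

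**Figure D4:**
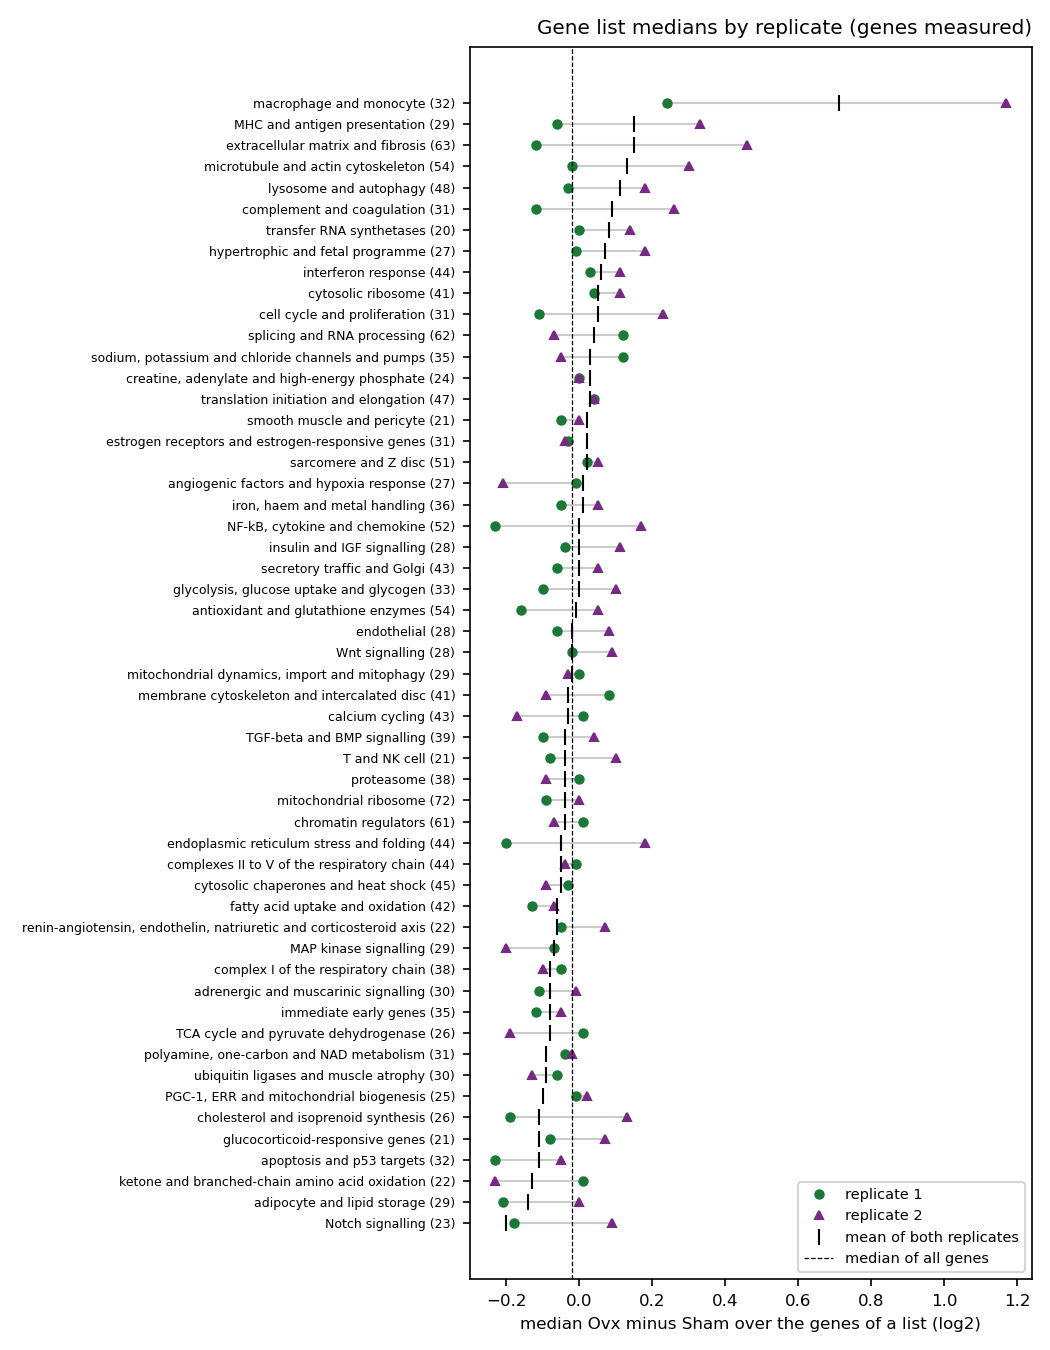
Median Ovx minus Sham (horizontal, log2) of each gene list with at least 20 measured genes (vertical, number of genes in brackets), for replicate 1 (circles), replicate 2 (triangles) and the mean of both (bars), with the median of all genes dashed. The macrophage list stands apart at 0.24 and 1.17, and most other lists lie near the dashed line, many with the replicates on opposite sides of it.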

How the data were processed

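The deposited values were linear signal intensities, 1 per probe set and array, which the authors computed in MAS5 according to the submitters' processing notes. MAS5 combines all probe pairs of a set. The labels state no scaling target and no version, and no detection calls were used, so dim values can hold background.

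Signals were taken to log2 and quantile normalized over all 8 arrays. Of 31099 probe sets, 57 controls were left out, and the 18625 at or above the 40th percentile of mean log2 signal were tested. The platform annotation gave 1 symbol for 20826 probe sets, several for 436 and none for 9780, and 20758 matched RefSeq genes of GRCr8 by Entrez number. A gene was represented by its brightest tested probe set.

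The test was limma 3.58.1 in R 4.3.3, with group means, the replicate number as a block, an intensity trend and Benjamini-Hochberg adjustment, two-sided, at 0.05. With 3 residual degrees of freedom, the residual SD had a median of 0.33. The difference of replicate 2 from replicate 1 correlated between all 6 pairs of groups (r = 0.28 to 0.33), so the number was taken as a pairing. The labels do not say what the number stands for, or whether pools share animals. With 2 arrays against 2, an exact permutation test cannot go below p = 0.33. The code was tested on simulated data with 200 changed probe sets at each size. The fit called 0% of 2-fold, 48.5% of 4-fold and 76.5% of 8-fold changes. The lack of calls between Ovx and Sham thus says little about changes of 2-fold or less.

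Named genes were the 15 per direction, at or above the 75th percentile of brightness, with the largest smaller-of-both replicate difference. Genes of 4 of the 65 lists (matrix, fibroblast, macrophage, clock) were left out of that choice. Of other lists, the members that ranked highest by the same measure were named. A set of 8 per direction at the 90th percentile, and the promoter motifs, were added after values had been seen. The comparison, lists and genes were chosen with earlier results of these data known. Alternatives covered the block, scaling, a pseudocount, the filter, the trend, the arrays in the fit, the choice of probe set and each array left out.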

Additional observations from a re-analysis of the deposited data

How the results depend on the processing

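The count of called probe sets was 0 in every fit run except 2, which gave 8 each, with the Ovx and Sham arrays alone (1 residual degree of freedom) and without Ovx replicate 1, so that leaving out 1 array gave 0 to 8. The count at an unadjusted p under 0.05, 573 as reported, was 274 with no replicate block, 376 with no between-array normalization, 1285 with median scaling, 1192 with no filter and 328 with the filter at the 60th percentile. Leaving out 1 array gave 525 to 1222 (874 without Ovx replicate 1, 1222 without Ovx replicate 2), and leaving out late estradiol replicate 1, chosen after its signal had been seen, gave 682. Of these probe sets, 268 of 573 lay higher as reported, 199 of 1285 with median scaling, 74 of 376 with no between-array normalization, 313 of 1222 without Ovx replicate 2 and 328 of 525 without Sham replicate 1. The cause of these shifts was not tested.

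Over the 49 named genes, 5 of 440 values under alternatives that left out no array changed sign, and all lay near 0. Atp2a2 gave 0.086 with no between-array normalization, 0.22 with median scaling and 0.027 as the mean of its probe sets, Myh6 gave 0.11 with median scaling, and Gper1 gave 0.065 with 32 added. With 1 array left out, the 42 genes chosen for a difference seen in both replicates kept their sign, which that choice favours and which is no test. The sign changed for the 7 genes not chosen that way. Their ranges were -0.38 to 1.78 for Nppa, -0.027 to 0.011 for Atp2a2, -0.23 to 0.045 for Myh6, -0.11 to 0.24 for Myh7, -0.33 to 0.17 for Nppb, -0.47 to 0.16 for Ppargc1a and -1.17 to 0.74 for Gper1. Of 905 list medians under alternatives, 703 stayed within 1 SD of the replicate medians.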

Other observations

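Polyamine, one-carbon and NAD metabolism had 31 measured genes, 13 higher and 18 lower in Ovx, with no member past the adjusted threshold in limma. Amd1, which makes the aminopropyl donor for polyamines, stood at 8.75 and 8.80 in Sham and 8.42 and 8.12 in Ovx (-0.50 ± 0.17). All 4 estradiol arrays lay above the Sham values or level with them, at 8.80 to 9.20. Ahcy, which clears the product of methylation reactions, stood at 6.09 and 6.72 in Sham and 6.73 and 7.20 in Ovx (0.56 ± 0.26). In it the highest Sham and the lowest Ovx array were almost level.

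Among 36 genes of iron, haem and metal handling, 19 lay higher and 17 lower. Mt2A, a metallothionein that binds zinc and responds to glucocorticoids, stood at 7.90 and 7.29 in Sham and 8.30 and 8.04 in Ovx (0.57 ± 0.22). Among 54 antioxidant and glutathione genes, 26 lay higher and 28 lower. Mgst2, a microsomal glutathione transferase, lay higher by 0.61 and 0.54, and Sod1, the cytosolic superoxide dismutase, differed by -0.27 and -0.24. Of 31 complement and coagulation genes, 6 lay higher and 7 lower in both replicates, near the shares of all genes (21.6% and 24.3%). Thbd, the thrombin receptor of endothelium, stood at 7.35 and 7.60 in Sham and 6.68 and 7.29 in Ovx (-0.49 ± 0.22), but its other probe set had the opposite sign. Bad, a promoter of apoptosis, stood at 5.94 and 5.83 in Sham and 6.34 and 6.95 in Ovx (0.76 ± 0.32). In its list of 32 genes, 14 lay higher and 18 lower. In both replicates 5 lay higher and 12 lower, so Bad went against the majority.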
